A study of Mus musculus with 47 samples.

Results

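The 10 genes described here govern the passage of a cell from G1 into S phase. They are the D cyclins Ccnd1, Ccnd2 and Ccnd3, the E cyclins Ccne1 and Ccne2, the CIP/KIP inhibitors Cdkn1a, Cdkn1b and Cdkn1c, and the MYC family genes Mycn and Myc. They were chosen by gene name, with no measured value in the rule, from RNA-seq tables that list 38347 genes for days up to day 2, 38347 genes for days 3.5 to 7.5, and 37514 genes for the Nkx2.2 arm. Each of the 10 was found once in every table and passed the filter on low values in every table, and no library listed any of them at 0.

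The 47 libraries came from mouse embryonic stem cells turned into ventral neural progenitors as a monolayer in N2B27 medium. In the Foxa2 arm, wild-type (WT) cells and Foxa2-/- cells received retinoic acid for the first 3.5 days and the SHH pathway agonist SAG1.3 at all times, and undifferentiated cells were untreated. WT libraries numbered 2 each for undifferentiated cells, day 1 and day 2 and 3 each for days 3.5, 4.5, 5.5, 6.5 and 7.5, and Foxa2-/- libraries numbered 3 at each time up to day 5.5 and 2 each at days 6.5 and 7.5. In the Nkx2.2 arm, 1 WT and 1 Nkx2.2-/- library per time were made at days 3.5 and 5.5, with both agents given only for the first 3.5 days. From day 3.5 on, RNA came from cells sorted magnetically for prominin. The labels give the line of every WT library as E14.5 and the line of every Foxa2-/- or Nkx2.2-/- library as C57BL/6, so genotype and cell line cannot be told apart in any comparison between them, and no clone number is given. The labels do not say whether replicates were separate cultures, so p-values measure only the spread between these libraries.

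As background, D cyclins bind the kinases CDK4 and CDK6 and E cyclins bind CDK2, and these complexes phosphorylate the RB proteins and free E2F factors to switch on S phase genes. The CIP/KIP proteins p21, p27 and p57, made from Cdkn1a, Cdkn1b and Cdkn1c, bind and restrain the cyclin and CDK complexes. MYC proteins pair with MAX and drive growth genes, and in the neural tube Mycn is the family member best known in dividing progenitors, where SHH signalling raises Mycn and D cyclin transcripts.

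Values are FPKM, a count of fragments divided by transcript length and library size. Depth was estimated from the spacing of the lowest values, at 32500000 to 38400000 fragments in the libraries of undifferentiated cells, day 1 and day 2, at 13200000 to 30600000 in the later ones, and at 9590000 to 12000000 in the Nkx2.2 arm. Of the targeted genes, Foxa2 stood at 25.5 to 41.8 FPKM in WT libraries at day 2 and 37.7 or more from day 3.5 on, against at most 0.266 in any Foxa2-/- library. Nkx2-2 stood at 19.6 FPKM in the WT and 1.34 in the Nkx2.2-/- library at day 3.5, and at 28.7 and 3.38 at day 5.5. Differences below are log2(FPKM + 1), Foxa2-/- minus WT unless said otherwise, with a standard error. They come from limma over all genes of a table, two-sided, and a gene was called at a Benjamini-Hochberg adjusted p under 0.05. Tables were normalized separately, so levels are not compared between them. Foxa2-/- replicates 1 and 3 of day 2 held fewer reads on long transcripts than the other libraries of their table, and both genes called at day 2 remained called with that length trend removed. With only replicate 2 of that group in the fit, both calls ended (differences of 0.36 for Cdkn1a and 0.84 for Mycn). Other libraries differed in length trend too. WT replicate 1 of day 1 had a slope of 0.0853 log2 units per doubling of length. At day 6.5 the slopes were -0.0064 and -0.0203 in Foxa2-/- libraries and 0.0365, 0.0663 and 0.0556 in WT libraries.

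In WT cells Ccnd1, Ccnd2, Ccne1 and Ccne2 fell and the inhibitor Cdkn1b rose from day 3.5 to day 7.5, while no change in Ccnd3 was called. In Foxa2-/- cells Mycn was higher than in WT at every time from day 1, Myc was lower at days 4.5 and 5.5, and Ccne1 was higher at days 6.5 and 7.5, in calls that ended without Foxa2-/- replicate 1. No D cyclin was higher at both of the last 2 days. The plot of FPKM by library shows all 10 genes, and the plot of differences gives each with its error.

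**Figure D1:**
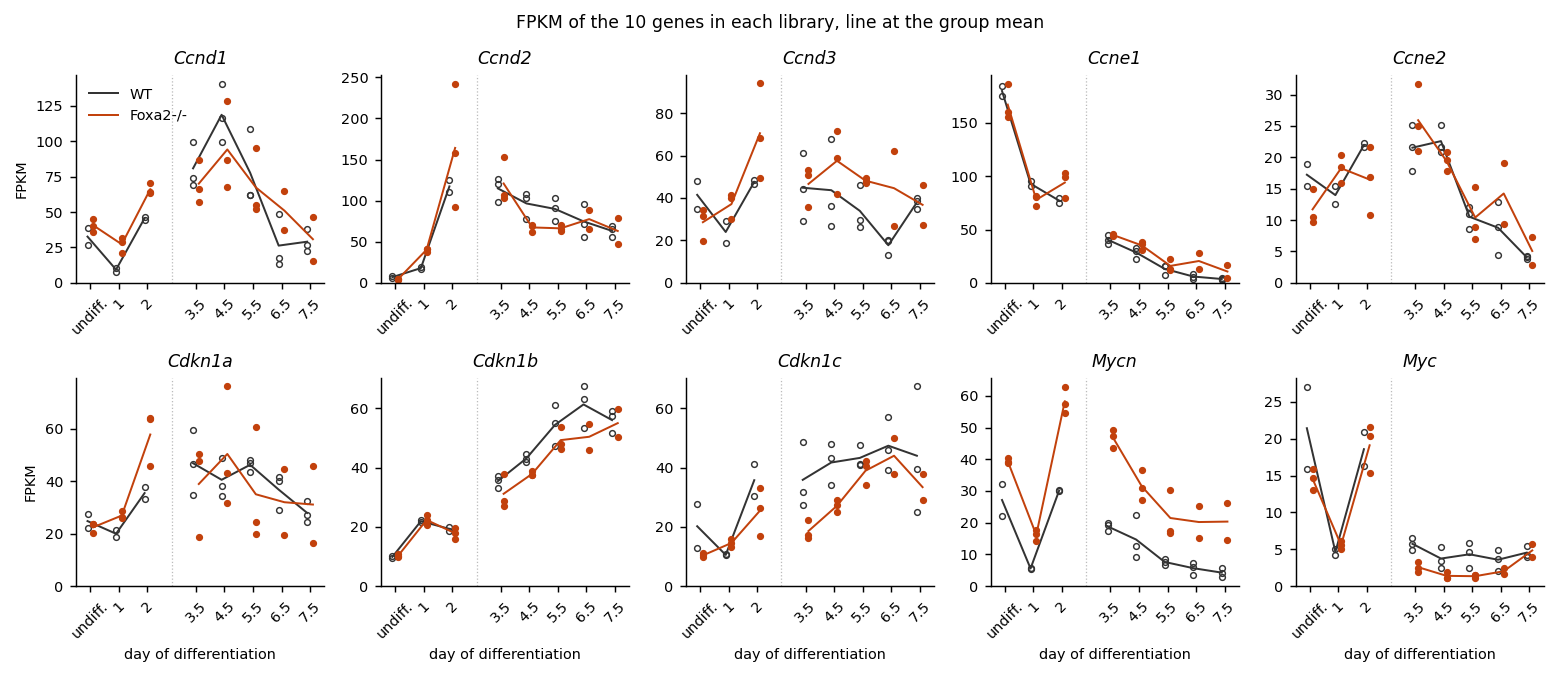
FPKM (y axis, linear) of each of the 10 genes in every library against time (x axis, undifferentiated cells and days), with WT libraries as open points, Foxa2-/- libraries as filled points and lines through the group means; the dotted line separates the tables, whose levels are not on a common scale. Mycn in Foxa2-/- libraries lies above WT from day 1 on, with 14.6 to 49.1 FPKM against 2.88 to 22.3 over days 3.5 to 7.5.

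Between genotypes, none of the 10 genes was called in undifferentiated cells, where 0.377% of all genes tested were, and 3 (Cdkn1c, Mycn and Myc) had an unadjusted p under 0.05 in limma. At day 1, 2 were called higher (Ccnd1 and Mycn; 1.88% of all genes were called in either direction), at day 2 also 2 (Cdkn1a and Mycn; 5.31%), and at day 3.5 only Mycn (3.38%). Without Foxa2-/- replicate 2 of day 2 the count at day 2 was 4, with 36.8% of all genes called, and without WT replicate 1 or 2 of that day it was 0. With only Foxa2-/- replicate 2 of day 2 it was 1, Ccnd2, in place of Cdkn1a and Mycn (1.48% of all genes called). Mycn was called higher and Myc lower at day 4.5 (7.5% of all genes called) and at day 5.5 (14.3%). At day 6.5, 3 of the 10 were called higher (Ccnd3, Ccne1 and Mycn) and 0 lower, with 24.9% of all genes called and 13% called higher. At day 7.5, 2 were higher (Ccne1 and Mycn) and 0 lower, with 25.8% called and 13.6% higher. The share of the 10 called at the last 2 days, 3 and 2 of 10, is near that background.

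Averaged over undifferentiated cells and days 1 and 2, Ccnd1 and Mycn were called higher, with 3.77% of all genes called. Averaged over days 3.5 to 7.5, Ccnd3, Ccne1 and Mycn were called higher and Cdkn1b, Cdkn1c and Myc lower, 6 of 10 against 45.5% of all genes. Leaving days 6.5 and 7.5 out of that average, an alternative chosen after seeing the data, left 3 of the 6 called (Cdkn1c, Mycn and Myc), with 25% of all genes called. Libraries of the genotypes did not overlap for 5 of the 10 genes in undifferentiated cells (17.5% of all genes), 9 at day 1 (53.3%), 5 at day 2 (41.8%), 3 at day 3.5 (24%), 6 at day 4.5 (27%), 4 at day 5.5 (35.6%), 3 at day 6.5 (37.8%) and 1, Mycn, at day 7.5 (47.4%).

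**Figure D2:**
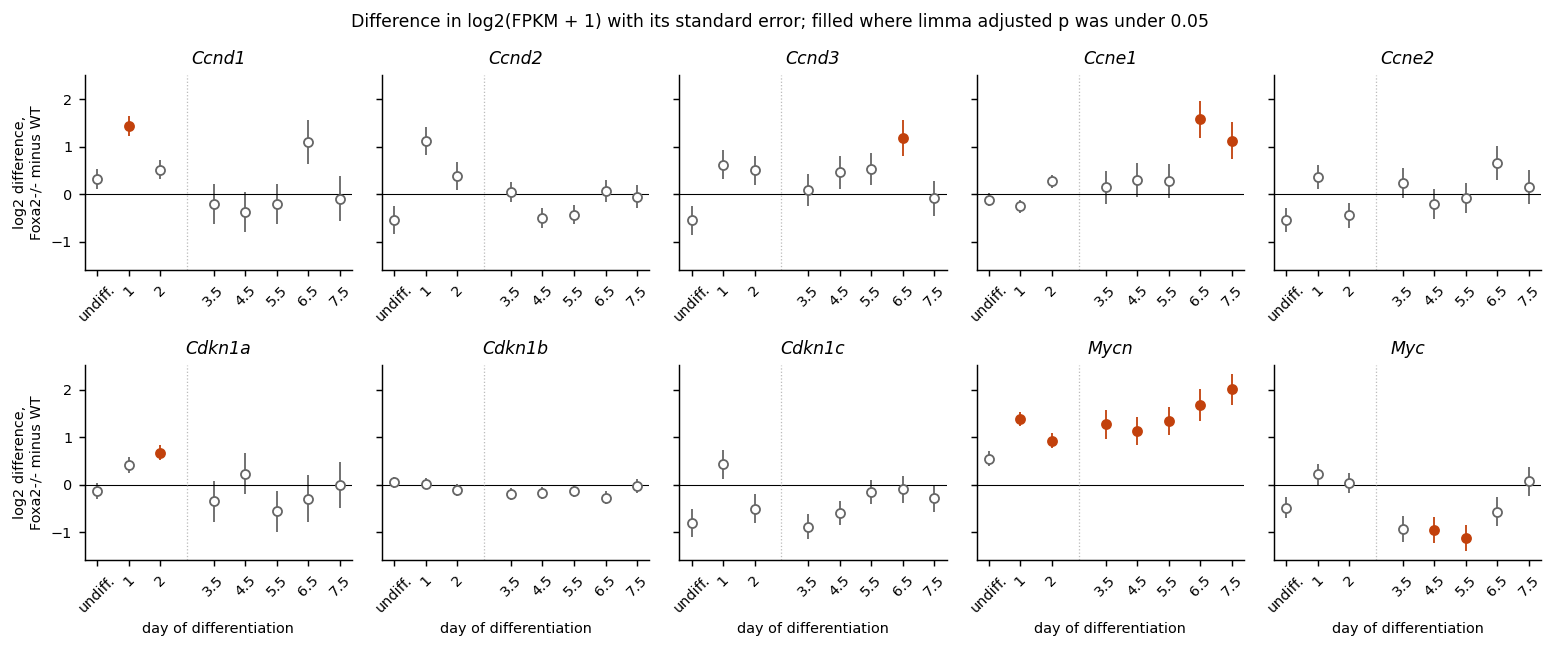
Difference in log2(FPKM + 1), Foxa2-/- minus WT (y axis), with its standard error at each time (x axis) for the 10 genes; filled points mark a limma Benjamini-Hochberg adjusted p under 0.05. Mycn is filled from day 1 on and reaches 2.01 at day 7.5, while Myc lies lowest at -1.13 at day 5.5.

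Mycn, which encodes N-MYC (ENSMUSG00000037169, chr12:12936093-12941914, minus strand, build GRCm38), had the most calls of the 10 genes. In undifferentiated cells it stood at 39.1, 40.4 and 38.8 FPKM in Foxa2-/- libraries and 32.3 and 22.0 in WT, which do not overlap, and the difference of 0.55 ± 0.15 did not pass (adjusted p = 0.317, limma with Benjamini-Hochberg adjustment). At day 1 the values were 14.1, 16.5 and 17.8 FPKM in Foxa2-/- libraries and 5.42 and 5.66 in WT libraries. Every Foxa2-/- library was above both WT libraries, and the difference was 1.38 ± 0.15 (limma, adjusted p = 0.00114). The day 2 values were 57.5, 54.5 and 62.7 FPKM in Foxa2-/- libraries and 29.9 and 30.3 in WT libraries, again apart, with a difference of 0.93 ± 0.15 (limma, adjusted p = 0.00536). That call ended when WT replicate 1 or 2 of day 2 was left out (differences 0.88 to 0.97, adjusted p up to 0.0693), and with only Foxa2-/- replicate 2 of that day. Beside these days, 3 of 8 neural progenitor markers were higher in Foxa2-/- cells at day 1 (summed level 350.2 to 363.9 against 169.8 to 199.6 FPKM) and 5 at day 2 (876 to 1409 against 727 to 815). Of all genes, 1.2% were called higher at day 1 and 1.6% at day 2. The summed markers of undifferentiated cells stood at 709 to 770 FPKM in Foxa2-/- against 840 to 911 in WT libraries at day 1. The part of these lists in the Mycn results was not tested. In bulk RNA of this kind, fewer cells of a type and less RNA per cell cannot be told apart.

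In the sorted progenitors of day 3.5 Mycn stood at 43.6, 49.1 and 47.4 FPKM in Foxa2-/- libraries and 17.2, 19.3 and 20.0 in WT libraries. All Foxa2-/- libraries lay above all WT libraries, and the difference was 1.27 ± 0.30 (limma, adjusted p = 0.0169). At day 5.5 the values were 30.4, 16.8 and 17.2 FPKM in Foxa2-/- libraries and 6.72, 8.62 and 7.48 in WT libraries, with a difference of 1.34 ± 0.30 (limma, adjusted p = 0.00318). At day 7.5 they were 26.1 and 14.6 FPKM in Foxa2-/- libraries and 5.57, 4.25 and 2.88 in WT libraries, the widest gap of the series at 2.01 ± 0.33 (limma, adjusted p = 1.29e-04). The groups did not overlap on any day, and day 4.5 (1.13 ± 0.30) and day 6.5 (1.67 ± 0.33) were also called (limma, adjusted p = 0.0200 and 9.06e-04). Leaving out WT replicate 1, 2 or 3 or Foxa2-/- replicate 2 or 3 ended the call at day 3.5 (differences 1.21 to 1.31, adjusted p up to 0.0745), and leaving out WT replicate 1 or 3 or Foxa2-/- replicate 1 or 2 ended it at day 4.5 (0.85 to 1.46, adjusted p up to 0.149). The calls at days 1, 5.5 and 7.5 and for both averages held in every alternative run, and the average over days 3.5 to 7.5 was 1.48 ± 0.14 (limma, adjusted p = 2.2e-08).

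Over time Mycn fell in both genotypes, from 18.8 ± 1.42 FPKM (SD, n = 3) at day 3.5 to 4.24 ± 1.35 (n = 3) at day 7.5 in WT, a change of -1.95 ± 0.30 (limma, adjusted p = 1.96e-05). In Foxa2-/- cells it went from 46.7 ± 2.79 (n = 3) to 20.3 ± 8.12 (n = 2), a change of -1.21 ± 0.33 (limma, adjusted p = 0.00890), a call that ended without Foxa2-/- replicate 2 of day 7.5 (range -1.61 to -0.81, adjusted p up to 0.221). The difference between these changes was 0.74 ± 0.45 and did not pass (limma, adjusted p = 0.379). Between undifferentiated cells and day 2 only the Foxa2-/- change of 0.55 ± 0.14 passed (limma, adjusted p = 0.00615), a call that ended with only Foxa2-/- replicate 2 of day 2 (0.46, adjusted p = 0.0897), and the difference between genotypes in that change was 0.38 ± 0.22 (adjusted p = 0.376).

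Myc, the founding member of the family (ENSMUSG00000022346, chr15:61985391-61990374, plus strand), went the other way from Mycn at days 4.5 and 5.5. At day 4.5 it stood at 1.95, 1.05 and 1.16 FPKM in Foxa2-/- libraries and 2.44, 5.35 and 3.40 in WT libraries. All Foxa2-/- libraries lay below all WT libraries, and the difference was -0.96 ± 0.27 (limma, adjusted p = 0.0308), a call that ended without WT replicate 2 or 3 or Foxa2-/- replicate 2 or 3 of that day (-1.17 to -0.73, adjusted p up to 0.145). At day 5.5 the values were 1.04, 1.52 and 1.45 FPKM in Foxa2-/- libraries and 2.42, 5.83 and 4.69 in WT libraries, also apart, and the difference of -1.13 ± 0.27 was called in every alternative run (limma, adjusted p = 0.00591). The day 3.5 values of 1.96, 3.33 and 2.40 FPKM in Foxa2-/- libraries and 4.90, 6.53 and 5.78 in WT libraries did not overlap either, but the difference of -0.93 ± 0.27 missed the threshold (limma, adjusted p = 0.0643). At day 7.5 the libraries overlapped, at 5.75 and 3.93 FPKM in Foxa2-/- libraries and 5.37, 3.96 and 4.27 in WT libraries, and the difference was 0.07 ± 0.30 (limma, adjusted p = 0.912). At day 6.5 they were 1.58 and 2.45 FPKM in Foxa2-/- libraries and 2.09, 3.68 and 4.95 in WT libraries, with Foxa2-/- replicate 2 above the lowest WT library and a difference of -0.57 ± 0.30 (adjusted p = 0.183). The average over days 3.5 to 7.5 was -0.70 ± 0.13 (limma, adjusted p = 1.16e-04). At days 4.5 and 5.5 the smooth muscle list was also lower in Foxa2-/- libraries (summed level 22.0 to 29.3 against 91.2 to 233 FPKM, and 7.56 to 17.4 against 43.0 to 195.8). Of its 6 genes 2 were called on each day, where 7.5% and 14.3% of all genes were called. The part of this list in the Myc result was not tested. Up to day 2 no difference in Myc was called, with 5.03 to 21.6 FPKM in Foxa2-/- libraries and 4.27 to 27 in WT.

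The ratio of Mycn to Myc within a library does not depend on how that library was scaled. In WT it ran from 1.20 to 1.39 in undifferentiated cells, was 3.69 to 4.17 at day 4.5, and was 0.674 to 1.08 at day 7.5, so that the WT libraries of day 7.5 held about as much Myc as Mycn per length. In Foxa2-/- libraries it was 2.46 to 3.09 in undifferentiated cells, 2.52 to 3.28 at day 1 and 2.67 to 3.54 at day 2. It was 14.7 to 22.3 at day 3.5 against 2.96 to 3.52 in WT, 11.1 to 29.1 at day 5.5 against 1.48 to 2.78, and 3.72 to 4.54 at day 7.5. The lowest Foxa2-/- library exceeded the highest WT library at every time, as the plot of the ratio shows. No test was made on the ratio, since it restates the differences above. The times up to day 2 and the later days were deposited apart, so steps between them are not read as time.

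**Figure D3:**
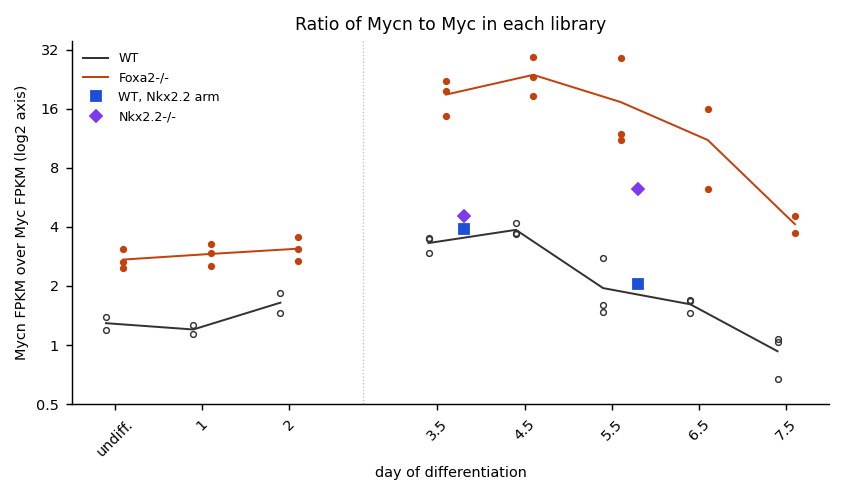
Ratio of Mycn FPKM to Myc FPKM in each library (y axis, log2 scale) against time (x axis), for WT, Foxa2-/- and the Nkx2.2 arm (squares for WT, diamonds for Nkx2.2-/-). Foxa2-/- libraries lie above WT libraries at each time, with 18.7 to 29.4 against 3.69 to 4.17 at day 4.5.

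The 250 bases before the RefSeq start of Mycn and of Ccne1 are shown because these are the genes called higher in Foxa2-/- cells at both days 6.5 and 7.5, and E2F factors sit downstream of the G1 cyclins. The GENCODE positions given for both genes reach into these windows. RefSeq windows (build GRCm38.p6) were at hand for 5 of the 10 genes (Ccnd3, Ccne1, Cdkn1a, Cdkn1b and Mycn, 7 windows in all). Mycn has the window chr12:12941837-12942086 and Ccne1 the window chr7:38107491-38107740, both minus strand and printed 5′ to 3′ on the strand of the gene, with capitals marking matches to the E2F letters TTTNNCGC on either strand.
Mycn: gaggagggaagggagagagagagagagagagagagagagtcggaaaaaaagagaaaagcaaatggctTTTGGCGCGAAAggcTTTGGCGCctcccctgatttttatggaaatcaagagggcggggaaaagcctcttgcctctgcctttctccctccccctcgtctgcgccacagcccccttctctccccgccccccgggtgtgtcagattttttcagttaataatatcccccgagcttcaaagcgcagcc
Ccne1: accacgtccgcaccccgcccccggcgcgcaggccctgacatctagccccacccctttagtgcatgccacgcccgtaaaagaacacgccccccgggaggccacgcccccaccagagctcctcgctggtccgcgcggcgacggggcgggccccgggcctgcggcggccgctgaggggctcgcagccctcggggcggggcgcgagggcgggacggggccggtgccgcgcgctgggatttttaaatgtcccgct
The Mycn window holds 3 matches, of which 2 overlap on opposite strands in the first capital run. The Ccne1 window holds none of these letters, nor do the windows of Ccnd3, Cdkn1a and Cdkn1b. Of 32851 promoter windows of the same length, 4.28% held at least 1 match and 0.225% held 2 or more. The GLI letters TGGGTGGTC (in 0.225% of all windows, either strand) and the E-box CACGTG (6.02%) were in none of the 7 windows. A match is a description of the letters and not a measured binding site.

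Of the D cyclins, Ccnd1 (ENSMUSG00000070348, chr7:144929931-144939925, minus strand) is the one best known as a target of growth factor signals. At day 1 it stood at 21, 29.1 and 31.6 FPKM in Foxa2-/- libraries and 8.02 and 10.7 in WT libraries. All Foxa2-/- libraries were higher, by 1.44 ± 0.20 (limma, adjusted p = 0.00406). Leaving out WT replicate 1 of day 1 ended the call (differences 1.25 to 1.63), and so did fitting only the groups compared. At day 2 the values were 64.5, 70.6 and 63.3 FPKM in Foxa2-/- libraries and 46.7 and 44.6 in WT libraries, which did not overlap, with a difference of 0.52 ± 0.20 that missed the threshold (limma, adjusted p = 0.116). From day 3.5 on no difference in Ccnd1 was called, and the average over those days was 0.05 ± 0.20 (adjusted p = 0.866). Day 1 is also when Gli1, a transcriptional target of SHH signalling, was higher in Foxa2-/- cells (5.36 ± 0.395 against 1.57 ± 0.726 FPKM, limma adjusted p = 0.00772), the 1 of 7 SHH targets called that day (1.88% of all genes called). At day 2 the summed SHH targets were the other way, at 57.5 to 119 FPKM in Foxa2-/- against 153 to 154.5 in WT libraries, with 1 of 7, Cdon, called lower (3.72% of all genes called lower). The smooth muscle list moved with Ccnd1 at day 1, with 5 of its 6 genes called higher (1.2% of all genes called higher). Its summed level was 359 to 383 FPKM in Foxa2-/- against 32.8 to 58.5 in WT libraries. The progenitor markers given with Mycn moved likewise, and the part of these lists in the Ccnd1 result was not tested.

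Over time Ccnd1 was highest in WT at day 4.5, at 140.5, 116 and 99.3 FPKM, and stood at 48.6, 17.2 and 13.2 at day 6.5 and 37.7, 22.6 and 27 at day 7.5. The fall from day 3.5 to day 7.5 was -1.46 ± 0.42 in WT (limma, adjusted p = 0.00733). In Foxa2-/- cells it was -1.34 ± 0.47 (limma, adjusted p = 0.0347), a call that ended without Foxa2-/- replicate 1 or 2 of day 3.5 or replicate 2 of day 7.5 (-2.12 to -0.56, adjusted p up to 0.572). The libraries within a group were far apart at day 6.5, where WT replicate 1 was above both other WT libraries and within the Foxa2-/- values of 64.7 and 37.5.

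Ccnd2, a D cyclin known from neural progenitors (ENSMUSG00000000184, chr6:127125162-127152193, minus strand), showed the largest change of the 10 genes with neural induction. It stood at 7.90 and 6.02 FPKM in undifferentiated WT libraries and 110.0 and 124.6 at day 2, a rise of 3.9 ± 0.32 (limma, adjusted p = 3.97e-06). In Foxa2-/- libraries it went from 4.51, 3.91 and 4.99 to 92.5, 241 and 158, a rise of 4.81 ± 0.26 (limma, adjusted p = 7.10e-08). The rises differed by 0.91 ± 0.42, which did not pass (limma, adjusted p = 0.302). The Foxa2-/- libraries of day 2 spread widely, with WT inside their range. At day 1 Ccnd2 stood at 41.8, 41.4 and 37.9 FPKM in Foxa2-/- libraries and 18.9 and 17.0 in WT libraries, without overlap, and the difference of 1.13 ± 0.29 was not called (adjusted p = 0.0886). From day 3.5 to day 7.5 it changed by -0.85 ± 0.21 in WT and by -0.95 ± 0.23 in Foxa2-/- cells (limma, adjusted p = 0.00212 and 0.00430), and the second call ended without Foxa2-/- replicate 2 of day 7.5 (-1.32 to -0.58, adjusted p up to 0.187). No difference between genotypes in Ccnd2 was called on any day with all libraries in the fit. With only Foxa2-/- replicate 2 of day 2, Ccnd2 was called higher at day 2, by 1.04 (limma, adjusted p = 0.0222).

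Ccnd3, the remaining D cyclin (ENSMUSG00000034165, chr17:47505051-47599691, plus strand), was called higher in Foxa2-/- cells at day 6.5. The values were 27 and 62.3 FPKM in Foxa2-/- libraries and 20.4, 13.2 and 19.6 in WT libraries. Both Foxa2-/- libraries were above all WT libraries, but they lay far apart, and the difference was 1.19 ± 0.38 (limma, adjusted p = 0.0250). The call ended without WT replicate 2 or Foxa2-/- replicate 2 of that day (0.60 to 1.78, adjusted p up to 0.372). At day 7.5 the values were 27.5 and 46.1 FPKM in Foxa2-/- libraries and 40.2, 35.0 and 38.5 in WT libraries, with WT between the Foxa2-/- libraries, and the difference was -0.09 ± 0.38 (adjusted p = 0.911). The average over days 3.5 to 7.5 was 0.44 ± 0.16 (limma, adjusted p = 0.0284), and this call ended without WT replicate 1 of day 3.5, WT replicate 3 of day 4.5, or Foxa2-/- replicate 2 of day 6.5 or 7.5 (0.32 to 0.56, adjusted p up to 0.0970). It also ended when days 6.5 and 7.5 were left out. Earlier, Ccnd3 rose in Foxa2-/- cells from 34.5, 19.7 and 31.6 FPKM undifferentiated to 94.1, 49.2 and 68.2 at day 2, by 1.26 ± 0.27 (limma, adjusted p = 0.00280), a call that ended with only replicate 2 of day 2 (0.80, adjusted p = 0.103). WT libraries stood at 48.1 and 34.8 and 46.6 and 48.5, a change of 0.21 ± 0.34 that was not called (adjusted p = 0.668), and the difference between the changes was 1.05 ± 0.43 (adjusted p = 0.276).

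The make-up of the D cyclins shifted with time. In undifferentiated WT libraries Ccnd3 gave 51.2 ± 0.648% of the summed D cyclin FPKM (SD, n = 2), Ccnd1 40.2 ± 1.07% and Ccnd2 8.63 ± 0.421%. In undifferentiated Foxa2-/- libraries Ccnd1 gave 55.6 ± 4.37% and Ccnd3 38.3 ± 4.68% (n = 3). At day 2 the Ccnd2 share was 55.7 ± 2.2% in WT and 52.8 ± 15.1% in Foxa2-/- libraries. At day 6.5 it was 63.9 ± 5.97% in WT (n = 3) and 44.5 ± 6.74% in Foxa2-/- libraries (n = 2), whose ranges of 58.3 to 70.2 and 39.8 to 49.3 did not overlap. The shares restate the levels of the single genes and were not tested.

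**Figure D4:**
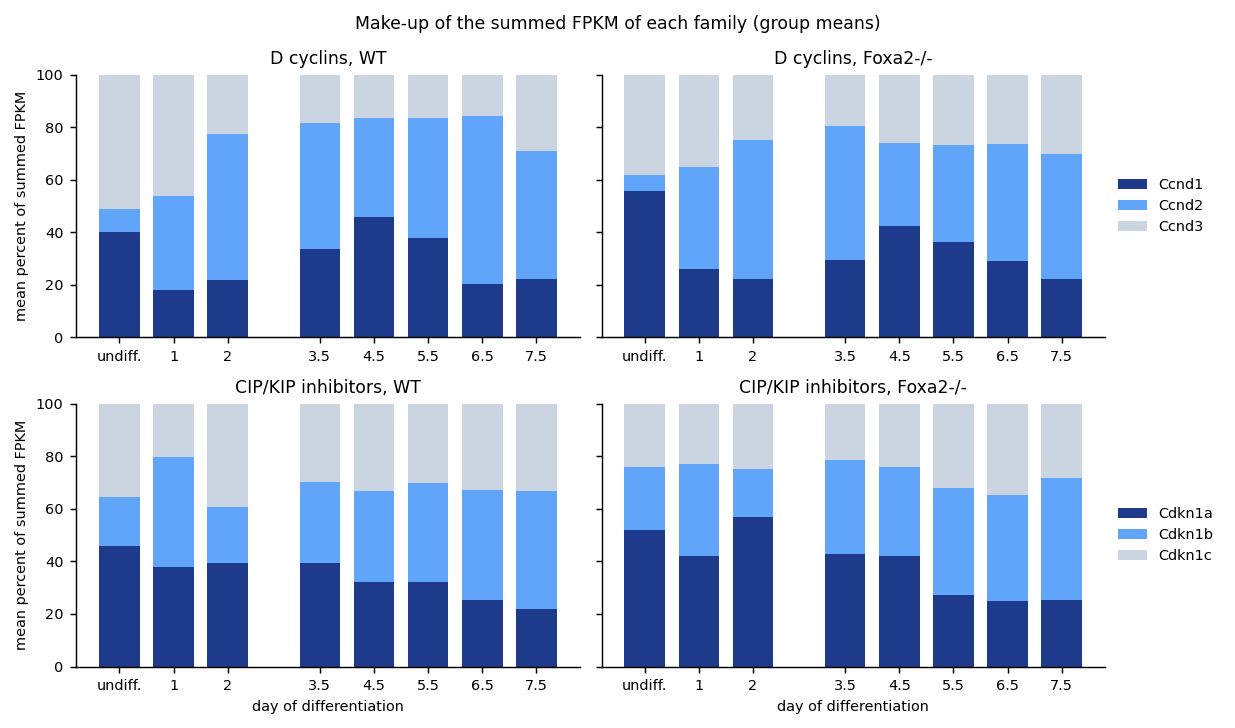
Mean percent of the summed FPKM that each D cyclin (upper row) and each CIP/KIP inhibitor (lower row) gave at each time (x axis), as stacked bars for WT and Foxa2-/- cells; no error is drawn, and bars are means of 2 or 3 libraries. In WT, Ccnd2 goes from 8.63% in undifferentiated cells to 55.7% at day 2, and Cdkn1b from 30.7% at day 3.5 to 44.8% at day 7.5.

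Ccne1, an E cyclin that activates CDK2 at the start of S phase (ENSMUSG00000002068, chr7:38097984-38107534, minus strand), had the largest fall of the 10 genes in WT from day 3.5 to day 7.5. It stood at 40.3, 44.4 and 36.7 FPKM at day 3.5, 7.49, 15.9 and 16 at day 5.5 and 4.79, 2.94 and 3.17 at day 7.5. No library of day 7.5 reached the lowest of day 5.5, and the change from day 3.5 to 7.5 was -3.18 ± 0.35 (limma, adjusted p = 5.11e-07). In Foxa2-/- libraries it went from 44.9, 43.9 and 45.6 to 16.6 and 4.72, a change of -2.19 ± 0.39 (limma, adjusted p = 3.92e-04). The changes differed by 0.99 ± 0.53, which was not called (limma, adjusted p = 0.310), and without Foxa2-/- replicate 2 of day 7.5 this difference was 1.8 and was called. In the first days Ccne1 also fell, from 175 and 185 in undifferentiated WT libraries to 74.6 and 79.7 at day 2, a change of -1.21 ± 0.15 (limma, adjusted p = 7.55e-05). In Foxa2-/- cells the change over those days was -0.83 ± 0.12 (limma, adjusted p = 1.76e-04).

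Between genotypes Ccne1 was called at days 6.5 and 7.5. At day 6.5 it stood at 27.9 and 13.1 FPKM in Foxa2-/- libraries and 8.33, 5.57 and 3.98 in WT libraries. Both Foxa2-/- libraries were above all WT libraries, by 1.58 ± 0.39 (limma, adjusted p = 0.00573), and the call ended without Foxa2-/- replicate 1 of that day (1.06 to 2.1, adjusted p up to 0.103). At day 7.5 the values were 16.6 and 4.72 FPKM in Foxa2-/- libraries and 4.79, 2.94 and 3.17 in WT libraries. Foxa2-/- replicate 2 lay below the highest WT library, so the groups overlapped, and the difference was 1.13 ± 0.39 (limma, adjusted p = 0.0389). That call ended without WT replicate 2 or 3 or without Foxa2-/- replicate 1 (0.32 to 1.94, adjusted p up to 0.710). At days 3.5 to 5.5 no difference was called, with 12.4 to 45.6 FPKM in Foxa2-/- and 7.49 to 44.4 in WT libraries. The average over days 3.5 to 7.5 was 0.69 ± 0.17 (limma, adjusted p = 0.00182) and 0.24 without days 6.5 and 7.5.

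Ccne2, the other E cyclin (ENSMUSG00000028212, chr4:11191351-11204779, plus strand), was not called between genotypes at any time. At day 6.5 it stood at 19.1 and 9.34 FPKM in Foxa2-/- libraries and 12.9, 8.93 and 4.49 in WT libraries, which overlap, and the difference was 0.66 ± 0.35 (limma, adjusted p = 0.183). In WT it stood at 25.1, 21.6 and 17.9 at day 3.5 and 4.31, 3.85 and 4.17 at day 7.5, and in Foxa2-/- libraries at 31.8, 21 and 25.0 and 7.25 and 2.90. The changes were -2.13 ± 0.32 in WT and -2.23 ± 0.35 in Foxa2-/- cells, a fall in both (limma, adjusted p = 1.49e-05 and 1.16e-04). Ccne1 gave 91.2 ± 1.48% of the E cyclin FPKM in undifferentiated WT libraries (n = 2) and 46.4 ± 5.43% at day 7.5 (n = 3). These times were deposited and normalized apart, so the step between them is not read as time. In Foxa2-/- libraries the Ccne1 share was 65.7 ± 5.41% at day 7.5 (n = 2). The Ccne2 gene shares 5622 bases with Ints8 on the opposite strand, which reached 77.5 FPKM in libraries of days 3.5 to 7.5. The kit is stranded per the labels, but whether the counting used strand is not given in the sources used here, so reads of the overlap cannot be assigned. Ccnd1 and Ccnd3 share 1771 and 361 bases with LTO1 and Bysl on the opposite strand, which reached 16 and 13.9 FPKM.

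Among the inhibitors, Cdkn1b, which encodes p27 (ENSMUSG00000003031, chr6:134920401-134925513, plus strand), rose with time. In WT it stood at 9.65 and 10.1 FPKM in undifferentiated cells and 19.9 and 18.7 at day 2, a rise of 0.90 ± 0.13 (limma, adjusted p = 2.65e-04). From day 3.5 to day 7.5 it went from 36.0, 33.2 and 37.2 to 59.2, 57.4 and 51.6, a rise of 0.65 ± 0.12 (limma, adjusted p = 2.09e-04). In Foxa2-/- libraries it went from 10.2, 10.8 and 9.67 to 15.8, 19.6 and 18.1 by day 2, and from 37.8, 28.6 and 27.2 to 50.3 and 59.8 by day 7.5. Those rises were 0.75 ± 0.11 and 0.81 ± 0.14 (limma, adjusted p = 1.52e-04 and 2.24e-04), and neither rise was shown to differ between genotypes (differences -0.16 ± 0.17 and 0.16 ± 0.18). At no time was a difference between genotypes called. Averaged over days 3.5 to 7.5 Cdkn1b was lower in Foxa2-/- cells, with a difference of -0.16 ± 0.06 (limma, adjusted p = 0.0255), a small difference whose call ended without Foxa2-/- replicate 1 of day 6.5 or of day 7.5 (-0.19 to -0.14, adjusted p up to 0.0727). The call also ended with the length trend removed (-0.11, adjusted p = 0.113) and without days 6.5 and 7.5.

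Cdkn1c, the imprinted gene for p57 (ENSMUSG00000037664, chr7:143458339-143461050, minus strand), was lower in Foxa2-/- cells when days 3.5 to 7.5 were averaged, with a difference of -0.40 ± 0.12 (limma, adjusted p = 0.00943), a call that held in every alternative run. At day 3.5 it stood at 22.4, 17.1 and 16.1 FPKM in Foxa2-/- libraries and 27.2, 31.9 and 48.5 in WT libraries. All Foxa2-/- libraries were below all WT libraries, but the difference of -0.89 ± 0.26 missed the threshold (limma, adjusted p = 0.0640). At day 4.5 the values were 29.0, 25.0 and 27.3 FPKM in Foxa2-/- libraries and 47.9, 43.1 and 34.1 in WT libraries, also apart, with -0.59 ± 0.26 (adjusted p = 0.205). At days 5.5 to 7.5 the libraries overlapped. In Foxa2-/- cells Cdkn1c rose from day 3.5 to day 7.5 by 0.82 ± 0.29 (limma, adjusted p = 0.0352), a call that ended without Foxa2-/- replicate 2 or 3 of day 3.5 or replicate 2 of day 7.5 (0.63 to 1.00, adjusted p up to 0.307). The difference from the WT change, 0.60 ± 0.39, was not called (adjusted p = 0.422). In undifferentiated cells Cdkn1c stood at 10.3, 9.70 and 11 FPKM in Foxa2-/- and 27.6 and 12.8 in WT libraries, which lie apart from each other, with a difference of -0.81 ± 0.30 that was not called (limma, adjusted p = 0.681). Of 5 tested genes that neighbour Cdkn1c in its imprinted cluster, Th was lower in Foxa2-/- cells at days 4.5 to 7.5. Phlda2 was higher at day 7.5 (5.13 ± 4.63 FPKM, n = 2, against 0.273 ± 0.0802, n = 3, limma adjusted p = 0.00149). The Foxa2-/- libraries lay far apart for Phlda2, and whether its call holds without either of them is not given here. Of all genes, 7.5%, 14.3%, 24.9% and 25.8% were called at days 4.5, 5.5, 6.5 and 7.5.

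Cdkn1a (ENSMUSG00000023067, chr17:29090976-29100727, plus strand) encodes p21 and is a target of p53. At day 2 it stood at 64.1, 45.6 and 63.5 FPKM in Foxa2-/- libraries and 37.7 and 33.2 in WT libraries. The groups did not overlap, and the Foxa2-/- libraries were higher by 0.68 ± 0.17 (limma, adjusted p = 0.0396), and this call ended without WT replicate 1 or 2 or Foxa2-/- replicate 1 or 3 of day 2 (0.59 to 0.83, adjusted p up to 0.299). From undifferentiated cells to day 2 it rose by 1.31 ± 0.15 in Foxa2-/- cells (limma, adjusted p = 2.48e-05). In WT the rise of 0.51 ± 0.18 was just past the threshold (limma, adjusted p = 0.0499) and ended without WT replicate 2 of undifferentiated cells or WT replicate 1 or 2 of day 2 (0.35 to 0.66, adjusted p up to 0.304), and it ended in 9 of the 12 alternatives run in all. From day 3.5 on the Foxa2-/- libraries spread from 16.4 to 76.4 FPKM and the WT libraries from 24.3 to 59.5, with no difference called. Of 12 genes of p53 and its other targets, 2 were higher (Trp53 and Btg2) and 2 lower (Plk2 and Perp) at days 4.5, 5.5 and 7.5 (7.5%, 14.3% and 25.8% of all genes called), and at day 6.5 Trp53 and Btg2 were higher and Plk2 was lower.

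In undifferentiated WT libraries the cyclins outweighed the inhibitors, with a summed D and E cyclin FPKM 5.21 ± 1.07 times the summed CIP/KIP FPKM (SD, n = 2). The ratio was 2.62 ± 0.395 at day 3.5, 0.927 ± 0.366 at day 6.5 and 1.09 ± 0.133 at day 7.5 (n = 3 each). In Foxa2-/- libraries it was 5.89 ± 0.454 in undifferentiated cells, 3.54 ± 0.966 at day 3.5, 1.64 ± 0.184 at day 6.5 and 1.22 ± 0.286 at day 7.5. At day 6.5 the WT libraries ran from 0.653 to 1.34 and both Foxa2-/- libraries were higher, and at day 7.5 the groups overlapped. Undifferentiated cells and days 3.5 to 7.5 were deposited apart, so the step between them is not read as time. The ratio in WT at day 3.5 was 2.16 to 2.90 in the Foxa2 arm and 1.26 in the WT library of the Nkx2.2 arm. Within the CIP/KIP group the Cdkn1b share in WT went from 30.7 ± 5.66% at day 3.5 to 44.8 ± 7.58% at day 7.5, and in Foxa2-/- libraries from 35.8 ± 10.4% to 46.3 ± 8.63%. The Cdkn1a share in WT went from 39.3 ± 3.43% to 22.0 ± 2.32%.

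Counted over time, WT cells had 3 of the 10 genes higher (Ccnd2, Cdkn1a and Cdkn1b) and 1 lower (Ccne1) at day 2 than undifferentiated, with 33.9% of all genes called. Foxa2-/- cells had 7 higher (the D cyclins, the 3 inhibitors and Mycn) and 1 lower (Ccne1), with 54.6% called. With only Foxa2-/- replicate 2 of day 2 these were 5 higher and 1 lower, where Ccnd3, Cdkn1c (0.66, limma, adjusted p = 0.153) and Mycn were no longer called and Ccne2 was (0.86, adjusted p = 0.0194), with 35.2% of all genes called. With all libraries, 0 of the 10 were called for the difference between these changes (1.01% of all genes), where 3 had an unadjusted p under 0.05 (Ccnd2, Ccnd3 and Cdkn1a). The median change of all genes over this step was 0.11 in WT and 0.14 in Foxa2-/- cells, against which the changes above are to be read. From day 3.5 to day 7.5, WT cells had 1 higher (Cdkn1b) and 5 lower (Ccnd1, Ccnd2, Ccne1, Ccne2 and Mycn), with 46.8% of all genes called and 22.4% lower. Foxa2-/- cells had 2 higher (Cdkn1b and Cdkn1c) and the same 5 lower, with 32.1% called and 13.4% lower. The difference between these changes was called for 0 of the 10 (7.42% of all genes), and only Myc had an unadjusted p under 0.05 (1.00 ± 0.41, limma, adjusted p = 0.153). Of 11 further differences between genotypes in a change over time, added after seeing the data, none called any of the 10. For day 1 against undifferentiated cells, 8 of the 10 had an unadjusted p under 0.05 in limma (0.219% of all genes were called). For day 2 against day 1, 4 did, and for the added pairs of later days 0 to 2 did. The share of all genes with an unadjusted p under 0.05 is not given here.

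Of 16 tested genes of S phase and mitosis, 16 were higher in Foxa2-/- cells at day 6.5, where 13% of all genes were. Their median difference was 1.25 against 0.07 over all genes. At day 7.5, 13 of them were higher, where 13.6% of all genes were, with a median of 1.00 against 0.04. At day 6.5 Mcm3, part of the replicative helicase, stood at 77.3 ± 9.66 FPKM (n = 2) against 20.8 ± 7.72 in WT (n = 3), a difference of 1.90 ± 0.26 (limma, adjusted p = 1.97e-05). The mitotic kinase Plk1 stood at 31.2 ± 8.68 against 10.3 ± 2.88 FPKM (limma, adjusted p = 5.36e-05). At day 5.5 only Mcm3 of the 16 was called, where 14.3% of all genes were. Their summed FPKM was higher in every Foxa2-/- library than in every WT library from day 3.5 on, at 2270.2 to 2427 against 1925 to 2064 at day 3.5, 2027 to 2138 against 1674 to 2005 at day 4.5 and 1428 to 2049 against 1075 to 1344 at day 5.5. Without Foxa2-/- replicate 1 the count at day 6.5 was 6 and at day 7.5 was 1. From day 3.5 to 7.5 all 16 fell in both genotypes, with a median of -1.96 in WT (all genes 0.03) and -0.98 in Foxa2-/- cells (all genes 0.07), and in Foxa2-/- cells 7 were called without replicate 2 of day 7.5. Over this step 22.4% of all genes were called lower in WT and 13.4% in Foxa2-/- cells. The shares of all genes called in the fits that leave out a library are not given here.

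Of 16 genes of the G1 kinases, RB family and E2F factors, 9 were higher and 0 lower in Foxa2-/- cells at day 6.5 (median 0.70), and 7 higher and 1 lower at day 7.5 (median 0.52). Of all genes, 13% were called higher and 11.9% lower at day 6.5, and 13.6% higher and 12.1% lower at day 7.5. At day 6.5 the repressor E2f7 stood at 8.64 ± 1.21 against 2.44 ± 0.277 FPKM (limma, adjusted p = 5.00e-04), the RB relative Rbl1 at 19.9 ± 3.7 against 10 ± 2.43 (adjusted p = 0.00135) and the activator E2f1 at 11.5 ± 1.23 against 5.38 ± 1.31 (adjusted p = 0.00190). E2f6 was the gene lower at day 7.5, and without Foxa2-/- replicate 1 the counts there were 1 higher and 1 lower. The share of all genes called in that fit is not given here. The INK4 inhibitor Cdkn2b, which blocks CDK4 and CDK6, was lower in Foxa2-/- cells on every day from 3.5 on, the single gene of its 4 called between genotypes at any one time point. On the average of days 3.5 to 7.5 Cdkn2a was called lower as well (-0.64 ± 0.25, limma, adjusted p = 0.0398). Cdkn2b stood at 0.717 ± 0.499 against 6.36 ± 1.25 FPKM at day 3.5, a difference of -2.13 ± 0.20 (limma, adjusted p = 4.55e-07), and at 0.774 ± 0.199 against 2.49 ± 0.828 at day 7.5 (-0.95 ± 0.22, adjusted p = 0.00308).

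**Figure D5:**
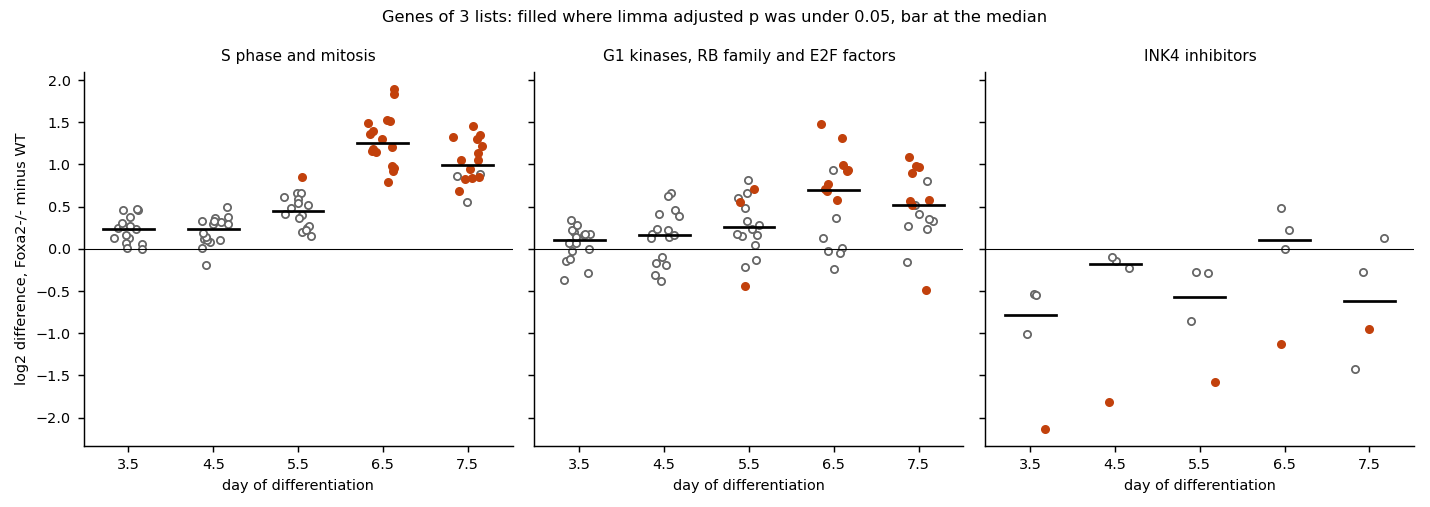
Difference in log2(FPKM + 1), Foxa2-/- minus WT (y axis), of each gene of 3 lists (S phase and mitosis; G1 kinases, RB family and E2F; INK4 inhibitors) at days 3.5 to 7.5 (x axis); filled points were called by limma at an adjusted p under 0.05 and bars are medians. The S phase and mitosis genes have medians of 1.25 at day 6.5 and 1.00 at day 7.5.

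Of 12 tested genes of CDK activation and cyclin turnover, Cdc25a, Cks1b and Skp2 were higher and Cdk7 and Ambra1 lower at day 6.5, and Cdc25a, Gsk3b and Fbxw7 were higher at day 7.5. The 5 of 12 at day 6.5 stand against 24.9% of all genes called, and the 3 of 12 at day 7.5 are at the background of 25.8%. Skp2 and Cks1b bring p27 to degradation, and Fbxw7 brings cyclin E and MYC proteins to it. Of 11 tested genes of the MAX network and MYB factors, Myb was higher from day 4.5 on (2.43 ± 0.449 against 0.177 ± 0.0568 FPKM at day 7.5, limma, adjusted p = 2.37e-05) and Mybl2 from day 5.5 on. The MYC antagonist Mxi1 was lower at days 6.5 and 7.5, with differences of -0.51 and -0.66. These calls are to be read against 7.5%, 14.3%, 24.9% and 25.8% of all genes called at days 4.5, 5.5, 6.5 and 7.5. Of 7 SHH pathway targets, 5 were higher and 1 lower at days 5.5 and 6.5 (14.3% and 24.9% of all genes called), and at day 7.5 the receptor gene Ptch1 stood at 117 ± 34.8 against 31.1 ± 3.55 FPKM (limma, adjusted p = 3.32e-06).

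Counts of markers of other cell states are to be read against the share of all genes called, 13% higher and 11.9% lower at day 6.5 and 13.6% higher and 12.1% lower at day 7.5. At day 4.5 the shares were 1.69% higher and 5.82% lower, and at day 5.5 4.53% higher and 9.73% lower. Of 6 tested markers of undifferentiated cells, 2 were higher in Foxa2-/- cells at days 4.5 and 6.5 and 1 at day 7.5, where another was lower. Their summed FPKM at day 6.5 was 3.68 to 7.86 in WT and 29.6 to 50.7 in Foxa2-/- libraries, against 2416 to 2794 in undifferentiated cells. Pou5f1 stood at 19.6 and 5.94 FPKM in Foxa2-/- replicates 1 and 2 at day 6.5 and 19.6 and 6.37 at day 7.5, and at 0 to 0.973 in WT libraries. Of 8 progenitor markers 2 were higher at day 6.5 and 3 at day 7.5, with 1 lower at each. That gene was Prom1, the gene of the sorting antigen, at 68.3 to 86.6 FPKM in Foxa2-/- against 154 to 207 in WT libraries at day 6.5 and 52.6 to 72.3 against 212 to 262 at day 7.5. Of 8 neuron markers 1 was higher at day 6.5 and 3 at day 7.5, with summed levels at day 7.5 of 305 to 458 against 188 to 246 FPKM, and the count at day 6.5 is at the background. The proliferation marker Mki67 stood at 102 and 46.5 FPKM in the Foxa2-/- libraries of day 6.5 and 63.0 and 35.5 at day 7.5, against 20.8 to 37.3 and 16.3 to 21.6 in WT. Foxa2-/- replicate 1 was the higher of the pair on both days for Ccnd1, Ccne1, Cdkn1a, Mycn, Mki67 and Pou5f1. The markers of undifferentiated cells did not all go this way. Dppa5a stood at 4.37 and 39.1 FPKM in Foxa2-/- replicates 1 and 2 at day 6.5 and 3.77 and 19.2 at day 7.5. The part of these differences in the results above was not tested. Smooth muscle markers had 2 or 3 of 6 genes lower in Foxa2-/- cells at days 4.5 to 7.5 (summed level at day 7.5 of 19.8 to 21.7 against 184 to 359.8 FPKM). Of 3 tested mesoderm markers 2 were lower at day 7.5, and of 4 tested endoderm markers 2 were higher at day 6.5 and 1 at day 7.5. No neural crest marker passed the filter from day 3.5 on, so none was tested. Their summed FPKM at day 7.5 was 1.25 and 5.90 in the Foxa2-/- libraries against 0.194 to 0.300 in WT. In undifferentiated cells and at days 1 and 2, 3, 4 and 5 of 6 markers of the 2-cell-like state were lower in Foxa2-/- cells. Of all genes, 0.298%, 0.68% and 3.72% were called lower at these times.

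The Nkx2.2 arm has 1 library per genotype and day, so its differences have no replicate check and no test. At day 3.5 none of the 10 genes differed by 2-fold or more, where 4.63% of 15141 genes did, and at day 5.5 only Myc did (4.48% of genes). Myc stood at 10.9 in the WT and 7.16 FPKM in the Nkx2.2-/- library at day 3.5 and at 8.33 in the WT and 3.22 FPKM in the Nkx2.2-/- library at day 5.5, a difference of -1.15 on the log2 scale, lower in the Nkx2.2-/- library as it was in Foxa2-/- cells. Mycn stood at 42.7 in the WT and 32.6 FPKM in the Nkx2.2-/- library at day 3.5 and at 17.0 in the WT and 20.1 FPKM in the Nkx2.2-/- library at day 5.5. Its difference was -0.38 and then 0.22. The arms share no libraries, and whether they differ in this was not tested. The ratio of Mycn to Myc was 3.91 in WT and 4.55 in Nkx2.2-/- at day 3.5, and 2.05 and 6.23 at day 5.5.

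Among the cyclins, Ccnd1 stood at 131 in the WT and 125.7 FPKM in the Nkx2.2-/- library at day 5.5, Ccnd2 at 122 in the WT and 116 FPKM in the Nkx2.2-/- library, and Ccne1 at 16.7 in the WT and 18.3 FPKM in the Nkx2.2-/- library. The differences of the 5 cyclins ran from -0.14 (Ccnd3) to 0.12 (Ccne1) on the log2 scale. Of the inhibitors, Cdkn1a stood at 98.1 in the WT and 62.7 FPKM in the Nkx2.2-/- library, Cdkn1b at 55.2 in the WT and 56.2 FPKM in the Nkx2.2-/- library and Cdkn1c at 154 in the WT and 167 FPKM in the Nkx2.2-/- library. Cdkn1c gave 50 to 60.5% of the CIP/KIP FPKM across the 4 libraries. From day 3.5 to day 5.5, Ccne1 and Mycn were lower by 2-fold or more in WT (-1.13 and -1.28 on the log2 scale; 6.79% of genes moved by 2-fold), and Cdkn1b was higher by 0.71. In Nkx2.2-/- cells none of the 10 moved by 2-fold (5% of genes did), and Ccne1 and Mycn were at -0.67 and -0.67. Beside these, the INK4 gene Cdkn2b stood at 23.4 in the WT and 11.5 FPKM in the Nkx2.2-/- library at day 3.5. Gli1 stood at 3.99 in the WT and 10.6 FPKM in the Nkx2.2-/- library at day 5.5 and Mki67 at 50.7 in the WT and 56.3 FPKM in the Nkx2.2-/- library, and the undifferentiated markers were lower in the Nkx2.2-/- library, with a summed level of 6.83 against 19.3 FPKM. Of these, Pou5f1 stood at 0.234 against 5.57 FPKM, Klf4 at 4.01 against 9.33 and Dppa5a at 0.203 against 2.02. The summed smooth muscle markers stood at 297 in the Nkx2.2-/- and 422 FPKM in the WT library. The part of these genes in the Myc difference was not tested.

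Across the 10 group means of days 3.5 to 7.5, genes were ranked by Pearson's r with each of the 10, over 12994 genes. This is a description, and the 10 points share libraries, genotype and time. The genes most like Ccne1 were Rrm2 (r = 0.995), Pole2 and Mcm4 (both 0.995), which serve DNA synthesis. Among those most like Mycn were Rnaseh2a (0.989) and Dctd (0.986), and those most like Cdkn1b were Rtn1 (0.985), Prox1 (0.983) and Gpr123 (0.981). Ccne2 was most like Prdx1 (0.985), Ccnd3 most like Ruvbl2 (0.988), Ccnd1 most like Shfm1 (0.958), Ccnd2 most like Robo2 (0.934) and Cdkn1c most like Ankib1 (0.950). The best match was weakest for Cdkn1a (Gm11633, 0.893), and for Myc it was a small nucleolar RNA, Gm25357 (0.964). Among the 10 themselves, Ccne1 ran with Ccne2 (r = 0.938) and against Cdkn1b (-0.908), while Mycn and Myc gave -0.491.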

How the data were processed

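RNA-seq of poly-A RNA (stranded TruSeq kit, per the labels' protocols) was deposited by the authors as 3 tables of FPKM per gene, for undifferentiated cells to day 2 (15 libraries), days 3.5 to 7.5 (28) and the Nkx2.2 arm (4). Per the submitters' processing notes, the reads went through bcl2fastq 1.8.3 and CASAVA, were aligned or counted with tools that include Cufflinks 2.1.1, HTSeq 0.6.1 and TopHat2 2.0.4 on GRCm38, and limma is also listed; which of them made the FPKM is not given in the sources used here. A further 3 columns match no library of the 47 and were set aside. Rows that repeated a gene identifier were reduced to 1, the row with the highest mean.

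From the FPKM, log2(FPKM + 1) was computed for genes that reached FPKM 1 in 2 or more libraries of a table (16465 and 17124 genes). limma 3.58.1 in R 4.3.3 was fitted to each table with a mean per genotype and time and a trended variance, two-sided, with Benjamini-Hochberg adjustment over all genes tested and a threshold of 0.05. The groups of 2 or 3 libraries share the spread of their whole table. In all, 16 comparisons were tested and 11 differences of changes were added after seeing the data. The pseudocount understates the change of low genes. In the Nkx2.2 arm (1 library a group, 15141 genes) a 2-fold difference was used without a test. On simulated data with known changes, limma recovered 52% of genes changed by 1 log2 unit and 90% of those changed by 2 at day 1 (15672 genes), and 71% and 93% at day 4.5 (16367 genes). Python 3.11.15, pandas 2.3.3, numpy 2.4.6 and matplotlib 3.10.9 were used for ratios and figures.

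Depth was estimated from the spacing of the lowest FPKM values. Positions are from GENCODE M21 (95.2% of the identifiers of the first tables and 86.8% of those of the Nkx2.2 arm were found) and promoter windows from RefSeq. Both day 5.5 libraries of the Nkx2.2 arm carry a stage label of 3.5 days and were placed by title, as was replicate 3 of undifferentiated Foxa2-/- cells, whose source name is that of neural progenitors while its stage label says undifferentiated. The named genes were the 10 members, Foxa2 and Nkx2-2, the called genes of each pathway or marker list (at most 4 per direction by adjusted p), and the 3 genes most alike to each member over 10 group means at FPKM 5 or more. Mki67, Pou5f1, Klf4, Dppa5a, Prom1 and the overlapping genes are named beside the rule, chosen after their values were seen. The members and lists were chosen with earlier results of these data known. The alternatives tried were quantile normalization, median-of-ratios factors, omission of the filter, a smaller pseudocount (0.1), a replicate block, isolated zeros as missing, removal of a length trend, only the groups compared, and leaving out each library. One gene among those most like a member is not reported here.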

Additional observations from a re-analysis of the deposited data

How the results depend on the processing

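No called difference changed direction in any alternative run. Of the results of single genes (the 10 members and the targeted genes), 2564 kept their side of the threshold, 78 lost it and 28 gained it. The number of the 10 genes called between genotypes moved as follows. With only the groups compared in the fit, it was 0 at days 2, 4.5 and 6.5 and 1 at day 7.5, against 2, 2, 3 and 2, and 1 against 7 for Foxa2-/- day 7.5 against day 3.5, where fewer libraries set the spread. Ccnd1 at day 1 also lost its call in that fit. With no filter it was 1 at day 4.5 and 1 at day 7.5, where more genes enter the adjustment. With only replicate 2 of Foxa2-/- day 2 it was 1 at day 2 and 1 for the difference between genotypes in the change to day 2; this gene was Ccnd2 both times, and Cdkn1a and Mycn lost their calls at day 2. With days 3.5 to 5.5 only, an average chosen after seeing the data, it was 3 against 6. Leaving out each library gave 1 to 2 at day 1, 0 to 4 at day 2, 0 to 1 at day 3.5, 0 to 1 at day 4.5, 1 to 2 at day 7.5, 3 to 7 for Foxa2-/- day 7.5 against day 3.5, 0 to 3 for the difference in the change to day 2 and 0 to 1 for that from day 3.5 to 7.5. Mycn at day 6.5 lost its call only with only the groups compared.

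The replicate block left 1 gene called at day 2 and gave 2 at day 3.5. Whether replicate numbers pair the libraries was not settled. Same-numbered pairs correlated over 0.1 in 7 of 19 cases, with a median of -0.0373, and differently numbered pairs in 10 of 38, with a median of -0.0279. These correlate deviations from group means, which mirror each other in a group of 2 libraries, so the medians are partly fixed and cannot decide it. Same-numbered pairs gave 0.466 and 0.604 in undifferentiated cells, and 0.0708 and -0.421 at day 6.5. With the block the count was 2 at day 4.5, 2 at day 5.5, 4 at day 6.5 and 2 at day 7.5.

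FPKM carry no counts, so counting error cannot be given. With 2 or 3 libraries a group, a call near the threshold rests on single libraries, as stated beside each. Genotype, cell line and any clone effect cannot be told apart. The Nkx2.2 arm has no replicate.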
